A study of Mus musculus with 4 samples.

Results

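Messenger RNA for the proteasome was measured in early T lineage progenitors (ETP), the most immature T lineage cells of the thymus, from old and young mice. The genes described are the rows of the deposited table whose symbol is Psm followed by a letter from a to g and a number. They are 48 of 23361 rows: 8 alpha ring genes, 11 beta ring genes, 6 ATPases, 14 further genes of the cap that bears the ATPases or of its assembly, 4 activator genes, 1 inhibitor gene and 4 chaperones of the core. Old ETP were sorted from female C57BL6 mice aged 72 weeks, and young ETP from female C57BL6 mice aged 4 to 6 weeks, with 2 libraries for each age and no genetic change or treatment named for either group. Cells were stained with a lineage cocktail, which held antibodies to NK-1.1 and CD11b and none to CD11c, and were taken as lineage-negative, CD44+, CD25- and CD117+. The old mice came from another colony than the young ones, so that age and the source of the mice cannot be told apart, and it is not stated if separate mice went into the 2 libraries of each age. The p-values therefore cover no more than the variation seen between libraries, part of which may be technical.

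The proteasome degrades proteins tagged with ubiquitin. Its 20S core is a barrel with an alpha ring at each end, which forms the gate, and beta rings inside, which hold the proteolytic sites, and its 19S cap (ATPases, scaffold and lid) recognises, unfolds and feeds in the substrate. In the constitutive core the active subunits are encoded by Psmb6 (beta1), Psmb7 (beta2) and Psmb5 (beta5). In haematopoietic cells, and in other cells after interferon-gamma, newly made cores can take up Psmb9 (beta1i), Psmb10 (beta2i) and Psmb8 (beta5i) in their place, which gives the immunoproteasome and favours peptides that fit MHC class I. Psme1 and Psme2 encode PA28 alpha and beta, an alternative cap that is also induced by interferon-gamma. The cortical epithelium of the thymus has a variant of its own, with Psmb11 (beta5t) as the active subunit.

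Proteasome genes were expressed throughout. On a scale corrected for gene length and library (TPM, the FPKM of a gene scaled to a constant FPKM total in each library), 46 of the 48 genes were at or above 10 TPM in all 4 libraries, with means over the 4 libraries between 15.3 TPM (Psmd9) and 1026 TPM (Psme1) and a median of 148.3 TPM. No member passed the test between ages: in the edgeR quasi-likelihood fit, with Benjamini-Hochberg adjustment over all 10080 tested genes, 0 of 46 tested members were called at an adjusted p under 0.05, as were 0% of all tested genes. DESeq2 called 2.23% of all tested genes and limma on log2(FPKM + 1) called 0%, and each called 0 of the 46 members. At an unadjusted p under 0.05, 4.65% of all tested genes were higher and 0.913% were lower in old ETP, against 1 member higher (Psmb9) and 0 members lower. The estimates of the members lay close to those of other genes, with a median log2 fold change, old over young, of -0.04 for the members and -0.03 for all tested genes, and 56.5% of the members and 53.4% of all tested genes had a lower estimate in old ETP. Both old libraries were above both young ones in 5 members (Psmb9, Psmb8, Psme1, Psmb5 and Psmf1, 10.9%), against 16.1% of all tested genes, and below both in 7 members (15.2%), against 15.5% of all tested genes. On the FPKM scale, which keeps a difference between libraries, limma gave a median of -0.27 for all tested genes and -0.31 for the members, with 39 of 46 members lower, so that directions are read here after TMM scaling. Fold changes are on the log2 scale, and levels set between libraries are normalised CPM, which is fragments scaled to a common library size by TMM.

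Depth and the markers of other cells differed between libraries. Old libraries 1 and 2 (replicates 1 and 2) held 11816478 and 4839341 fragments, and young libraries 1 and 2 held 16658864 and 6414915, of which the members took 0.572% and 0.479% in old and 0.580% and 0.442% in young. A count of 0 allows up to 3 fragments, which was 0.249 and 0.654 CPM in old and 0.176 and 0.481 CPM in young, and these limits cover counting error only. Kit and Cd44, genes of the positive gate markers, were present in all libraries. Kit was at 936 and 945 CPM in old and 764 and 1096 CPM in young. Cd44 was at 636 and 519 CPM in old and 496 and 517 CPM in young. Il2ra, which encodes CD25, the marker that the sorted cells lacked, was at 22.9 to 39.9 CPM. Markers of conventional dendritic cells were higher in old libraries, above all in the second: their summed level was 5367 and 17343 CPM in old and 1063 and 1583 CPM in young, and 11 of the 12 tested markers had a higher estimate. Most of the sum in old came from 2 genes of MHC class II presentation, Cd74 at 2845 and 9057 CPM and H2-Ab1 at 866 and 3687 CPM. In young Cd74 was at 229 and 522 CPM and H2-Ab1 at 142 and 225 CPM. The summed level of 14 NK and innate lymphoid markers was 409.9 and 444 CPM in old and 249 and 253 CPM in young. Nkg7, the most abundant of them, was at 231 and 158 CPM in old and at 220 and 214 CPM in young. It was the only 1 of the 8 tested markers with a lower estimate. The other 7 had a higher estimate, and the median log2 fold change of the 8 was 3.04. In bulk RNA, fewer cells of a type and less RNA per cell cannot be told apart.

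The positions of these genes (GRCm38, GENCODE) bear on how their fragments were counted. Psmb9 (chromosome 17, 34181987 to 34187764, minus strand) and Psmb8 (chromosome 17, 34197721 to 34201454, plus strand) lie in the MHC on either side of Tap1, which encodes a subunit of the transporter that carries peptides to MHC class I. In RefSeq the starts of Psmb9 and Tap1 are 226 bases apart on opposite strands, and in GENCODE the annotated exons of both genes share positions, so their fragments may have been split between them if counting did not use strand, which the sources used here leave unstated. Tap1 was at 189.6 and 209.6 CPM in old ETP and at 107 and 84.4 CPM in young ETP, with a log2 fold change of 1.06 (SE 0.27, edgeR adjusted p = 0.456), and Psmb9 was at 5.48 and 6.22 times the FPKM of Tap1 in old and at 6.51 and 5.499 times in young. Psmb10 lies apart from them on chromosome 8 (105935735 to 105938444, minus strand). Psme1 (chromosome 14, 55578123 to 55581529, plus strand) and Psme2 (chromosome 14, 55587441 to 55591113, minus strand) face each other, and Psmb5 (chromosome 14, 54614119 to 54618022, minus strand) neighbours Psmb11. Psmb6 is on chromosome 11 (70525367 to 70527858, plus strand) and Psmb7 on chromosome 2 (38588036 to 38644087, minus strand). Of the 48 members, 13 share exonic positions with another annotated gene, and 9, Psme2 and Psmb5 among them, have a transcribed or pseudogene copy of at least 95% identity over at least 200 bases, so that their values are uncertain to that extent.

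Promoter windows of 300 bases, from 250 before to 50 after the start site, were taken from RefSeq (GRCm38.p6), where 40 of the 48 members had an entry. These windows are set on the RefSeq start site, which lies inside the GENCODE gene bounds given above by 434 bases in Psmb9, 474 in Psmb8, 371 in Psme1 and 27 in Psmb5, so that sequence before the outermost GENCODE start of Psmb9, Psmb8 and Psme1 is not covered. They are printed for the 2 immunoproteasome genes and the PA28 gene that did not overlap between ages, and for 2 constitutive partners, each read in the direction of its gene. The capitals mark the match to 1 of 4 motifs, found on either strand: the element bound by interferon regulatory factors (GAAA repeated after a gap of 2 bases), TTCNNNGAA, bound by STAT factors, TGACNNNGC, the core of the antioxidant element bound by Nfe2l1 and Nfe2l2, and CCAAT, bound by NF-Y. The windows are Psmb9 at chr17:34187281-34187580 (minus strand, CCAAT), Psmb8 at chr17:34197945-34198244 (plus strand, STAT element), Psme1 at chr14:55578244-55578543 (plus strand, interferon regulatory factor element), Psmb5 at chr14:54617946-54618245 (minus strand, antioxidant element) and Psmb6 at chr11:70525107-70525406 (plus strand, antioxidant element).
Psmb9: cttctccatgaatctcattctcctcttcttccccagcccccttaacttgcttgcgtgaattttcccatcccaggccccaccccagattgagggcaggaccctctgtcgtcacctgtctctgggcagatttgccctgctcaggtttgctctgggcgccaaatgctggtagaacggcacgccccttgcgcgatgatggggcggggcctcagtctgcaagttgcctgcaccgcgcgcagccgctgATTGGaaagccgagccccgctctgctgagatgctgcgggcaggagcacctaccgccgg
Psmb8: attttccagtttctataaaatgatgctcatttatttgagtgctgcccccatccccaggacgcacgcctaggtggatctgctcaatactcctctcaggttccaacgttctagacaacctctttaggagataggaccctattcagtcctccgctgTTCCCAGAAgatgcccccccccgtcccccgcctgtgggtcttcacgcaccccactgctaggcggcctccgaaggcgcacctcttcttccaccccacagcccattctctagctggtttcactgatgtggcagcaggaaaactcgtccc
Psme1: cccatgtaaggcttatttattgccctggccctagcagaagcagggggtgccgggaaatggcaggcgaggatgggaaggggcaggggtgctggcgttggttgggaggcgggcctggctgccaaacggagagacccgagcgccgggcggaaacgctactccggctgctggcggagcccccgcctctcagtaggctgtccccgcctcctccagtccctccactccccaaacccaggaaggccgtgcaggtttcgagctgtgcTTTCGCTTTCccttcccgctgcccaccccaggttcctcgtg
Psmb5: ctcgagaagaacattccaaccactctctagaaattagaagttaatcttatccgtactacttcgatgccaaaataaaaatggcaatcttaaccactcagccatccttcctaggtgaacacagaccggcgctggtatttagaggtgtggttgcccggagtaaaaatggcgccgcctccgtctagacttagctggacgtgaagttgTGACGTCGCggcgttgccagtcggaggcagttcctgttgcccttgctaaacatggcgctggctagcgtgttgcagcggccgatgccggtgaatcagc
Psmb6: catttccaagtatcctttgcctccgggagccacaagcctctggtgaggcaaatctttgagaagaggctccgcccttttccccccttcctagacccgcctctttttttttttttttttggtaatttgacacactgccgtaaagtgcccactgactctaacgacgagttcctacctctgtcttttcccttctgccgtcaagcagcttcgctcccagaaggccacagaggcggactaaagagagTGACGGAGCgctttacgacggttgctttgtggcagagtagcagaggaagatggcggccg

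No match of a motif in a member shared bases with a match of another motif. By their first base and counted from the RefSeq start sites, the CCAAT box stood 8 bases and the STAT element 97 bases before those of Psmb9 and Psmb8, the interferon regulatory factor element began at base 10 of Psme1 counted from its start, and the antioxidant elements stood 47 and 9 bases before the starts of Psmb5 and Psmb6. Neither the interferon regulatory factor element nor the STAT element was found in the Psmb9 window, which says only that these letters are not in it and nothing of the sequence outside it. The interferon regulatory factor element was in 12.5% of the 40 members with a window (Psmb3, Psmd4, Psmd9, Psme1 and Psmg4) and in 3.44% of all 32851 promoter windows. The STAT element was in 7.5% of the members (Psmb8, Psmd2 and Psmg1) and in 8.3% of all windows, the antioxidant element in 15% of the members and in 12.4% of all windows, and CCAAT in 35% and 37.4%. A match is a description of the sequence and not a site of binding.

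Of the immunoproteasome and PA28 genes, Psmb9, Psmb8 and Psme1 had the highest estimates of all tested members. Psme1, Psmb9, Psma7 and Psmb8 were the 4 most abundant members per length, at means over all libraries of 1026, 587, 554 and 473 TPM. Psmb9, whose start lies beside that of Tap1, was at 219.7 and 288 CPM in old ETP and at 145 and 102 CPM in young ETP. Both old libraries were above both young ones. Its mean was 254 ± 48.0 CPM in old and 123 ± 30.5 CPM in young (SD, n = 2 each), and its log2 fold change of 1.04 (SE 0.31) had the smallest p of the members, at 0.0179 unadjusted and 0.628 adjusted in the edgeR fit over all genes. Psmb8 was at 280.5 and 318 CPM in old ETP and at 231 and 203 CPM in young ETP. Here too both old libraries were above both young ones, with a log2 fold change of 0.46 (SE 0.26, edgeR adjusted p = 0.999). Psmb10 was at 51.8 and 47.1 CPM in old ETP and at 57.2 and 43.4 CPM in young ETP. Its groups overlapped and its log2 fold change was -0.03 (SE 0.28), the only negative estimate of the 3 immunoproteasome genes.

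Psme1 was at 466 and 500.0 CPM in old ETP and at 407 and 323 CPM in young ETP, with both old libraries above both young ones and a log2 fold change of 0.40 (SE 0.27, edgeR adjusted p = 0.999). Psme2 was at 119 and 146 CPM in old ETP and at 128 and 84.7 CPM in young ETP. Its groups overlapped, and its log2 fold change was 0.31 (SE 0.31). The products of both genes build the same ring, and within each library Psme1 was at 3.21 and 2.87 times the FPKM of Psme2 in old and at 2.67 and 3.21 times in young, which overlapped. The 5 genes of the immunoproteasome and PA28 together had a median log2 fold change of 0.40, with 4 estimates higher and 1 lower in old ETP (also on FPKM, where the median was 0.11), and their summed level was 1137 and 1298 CPM in old and 968 and 756 CPM in young. In 3 of the 5 both old libraries were above both young ones, against 16.1% of all tested genes. These 5 genes were chosen with results of these data known, and their direction is a description.

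Leaving out old library 2, which had the highest dendritic cell marker sum, gave a log2 fold change of 0.80 for Psmb9, and leaving out old library 1 gave 1.26. Leaving out a young library moved Psmb9 about as far, to 0.81 without young library 2 and 1.32 without young library 1. Old library 1 also had a higher marker sum than both young libraries, so these omissions do not separate dendritic cells from age. The part of dendritic cells, and of the NK and innate lymphoid markers, in the higher estimates of Psmb9, Psmb8, Psme1 and Psme2 was not tested. Of the defining markers of conventional dendritic cells, Xcr1 was at 96.4 and 618 CPM in old and at 10.2 and 26.8 CPM in young, and none of the 14 was at 0 in any library. Of the NK and innate lymphoid markers, Tbx21 alone was at 0 in a library.

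**Figure D1:**
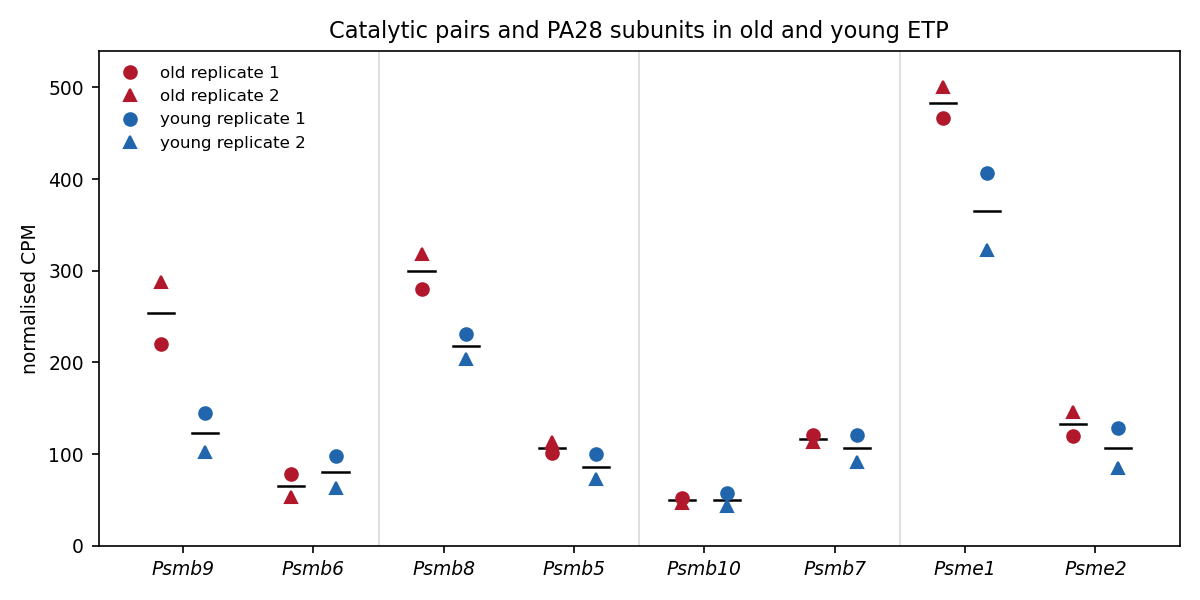
Normalised CPM (y axis, from 0) of the 3 catalytic pairs, immunoproteasome gene beside its constitutive partner, and of the PA28 genes, with a point for each library (red, old; blue, young; circle, replicate 1; triangle, replicate 2) and a black line at the mean of each age. Psmb9 has the widest gap between ages, at means of 254 CPM in old and 123 CPM in young ETP, while Psmb10, Psmb6, Psmb7 and Psme2 overlap between ages.

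The constitutive catalytic genes did not share a direction. Psmb5, which encodes the chymotrypsin-like subunit that Psmb8 replaces, was at 100.8 and 113 CPM in old ETP and at 99.5 and 72.7 CPM in young ETP. Both old libraries were above both young ones, by as little as 100.8 against 99.5 CPM, and the log2 fold change was 0.31 (SE 0.28, edgeR adjusted p = 0.999). Psmb6, the caspase-like subunit that Psmb9 replaces, was at 77.7 and 53.2 CPM in old ETP and at 98.3 and 62.5 CPM in young ETP. The groups overlapped, with a log2 fold change of -0.30 (SE 0.35). Psmb7, the trypsin-like subunit that Psmb10 replaces, was at 120.4 and 113 CPM in old ETP and at 121 and 91.6 CPM in young ETP, and these overlapped as well, with a log2 fold change of 0.14 (SE 0.27). The median of the 3 genes was 0.14, below the median of 0.46 of the 3 immunoproteasome genes, and neither group held a gene past the threshold. On FPKM without scaling between libraries the estimate of Psmb7 was -0.15. Summed per length, the 3 immunoproteasome genes were at 1176 and 1625 TPM in old and at 920.4 and 869 TPM in young, and the 3 constitutive genes at 687 and 741 TPM in old and at 752 and 645 TPM in young.

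The share of the immunoproteasome gene within each pair, taken from FPKM inside a library, does not depend on scaling between libraries. Psmb9 made up 79.8% and 88.2% of Psmb9 and Psmb6 in old ETP, and 67.5% and 69.2% in young ETP. The ages did not overlap, and the mean share was 84.0% ± 5.90 in old and 68.4% ± 1.24 in young (SD, n = 2 each), a difference of 15.6 percentage points. Psmb8 made up 64.2% and 64.9% of Psmb8 and Psmb5 in old ETP, and 59.8% and 64.7% in young ETP. The ages overlapped, and the mean share was 64.6% ± 0.523 in old and 62.2% ± 3.43 in young (SD, n = 2 each). Psmb10 made up 23.4% and 23.0% of Psmb10 and Psmb7 in old ETP, and 25.1% and 25.4% in young ETP. Its share was lower in both old libraries, by 2.02 percentage points on average, and in all libraries Psmb7 was the more abundant gene of that pair.

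With 2 libraries for each age the exact two-sided permutation test cannot give a p below 0.333. The Psmb9 and Psmb10 shares reached that value (exact p = 0.333, 0.5 after adjustment over the 3 pairs), and the Psmb8 share had an exact p of 0.667 (adjusted 0.667). The test could therefore not have passed the threshold, and the shares are given as values.

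**Figure D2:**
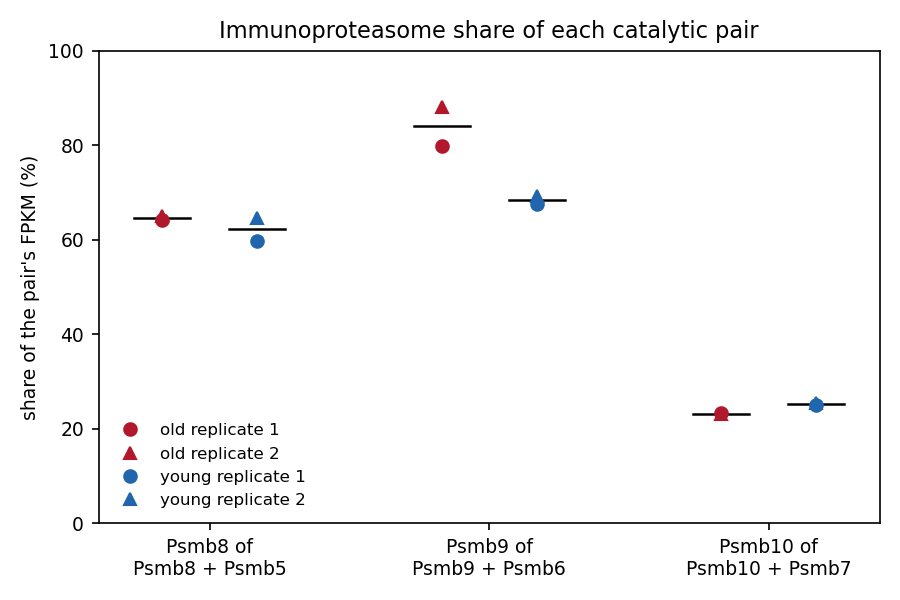
Share of the immunoproteasome gene in each catalytic pair (y axis, percent of the FPKM of the pair, from 0 to 100), with a point for each library (red, old; blue, young; circle, replicate 1; triangle, replicate 2) and a black line at the mean of each age. The Psmb9 share lies at 79.8% and 88.2% in old and at 67.5% and 69.2% in young ETP, whereas the other pairs differ by 2.33 and -2.02 percentage points between ages.

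The remaining tested core genes had estimates of -0.16 to 0.31. The 7 tested alpha ring genes (Psma1 to Psma7), whose products open and close the entrance of the barrel, had log2 fold changes of -0.16 to 0.08 with a median of -0.05, and all 7 overlapped between ages. Psma7, the most abundant of them per length, was at 247 and 156 CPM in old ETP and at 253 and 152 CPM in young ETP. The first library of each age was the higher one. The 4 inactive beta subunits (Psmb1 to Psmb4) had estimates of 0.08 to 0.31, all higher in old ETP, where 3 of 4 were lower on FPKM without scaling between libraries, and all overlapped between ages. Psmb4 was the highest of these, at 169 and 116 CPM in old ETP and at 139 and 91.9 CPM in young ETP, with a log2 fold change of 0.31 (SE 0.34). The direction of the 4 inactive subunits rested on single libraries. Their median was -0.09 without young library 2 and -0.05 without old library 1, against 0.57 without young library 1 and 0.33 without old library 2. Over the 14 tested genes of the standard core, constitutive catalytic subunits included, 7 estimates were higher and 7 lower in old ETP, with a median of 0.04.

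Core variants of other tissues did not pass the filter on low values and were not tested. Psmb11, the thymic epithelial subunit, had 0 and 0 fragments in old ETP and 1 and 2 fragments in young ETP. Of the other 7 epithelial markers Foxn1 was at 0 in all 4 libraries, and their summed level was 7.23 and 17.6 CPM in old and 9.19 and 7.05 CPM in young. Psma8, the alpha subunit of the testis core, had 26 and 34 fragments in old ETP and 15 and 8 fragments in young ETP, or 2.16 and 7.41 CPM against 0.878 and 1.28 CPM. Both old libraries were above both young ones, with too few fragments to pass the filter of 1 FPKM in 2 libraries.

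Most genes of the 19S cap had a lower estimate in old ETP. Of its 20 genes (Psmc and Psmd, assembly chaperones included), 15 had a lower and 5 a higher estimate in old ETP, with a median of -0.14, and 0 were called. The lower estimates made up 75%, against 53.4% of all tested genes. On FPKM without scaling between libraries all 20 were lower, where the median of all tested genes was -0.27. In 6 of the 20, or 30%, both old libraries were below both young ones (Psmd14, Psmd13, Psmc6, Psmd1, Psmd5 and Psmd11), against 15.5% of all tested genes. Psmd14, the deubiquitinase of the lid that strips ubiquitin from substrates, had the smallest p of the members with a lower estimate: it was at 98.0 and 108 CPM in old ETP and at 133 and 129 CPM in young ETP. The groups did not overlap, and the log2 fold change was -0.34 (SE 0.25, edgeR unadjusted p = 0.215 and adjusted p = 0.999). Psmd3, a structural subunit of the lid, was at 56.4 and 37.0 CPM in old ETP and at 65.1 and 52.7 CPM in young ETP, which overlapped, with a log2 fold change of -0.33 (SE 0.32). Among the 6 ATPases, which unfold the substrate, estimates ran from -0.25 (Psmc2) to 0.10 (Psmc3). Of the 3 chaperones of the base (Psmd5, Psmd9 and Psmd10), 2 had a lower estimate, with a median of -0.13. The ubiquitin receptor Psmd4 was at 46.6 and 38.3 CPM in old ETP and at 41.7 and 36.2 CPM in young ETP, with a log2 fold change of 0.13 (SE 0.28). The direction of the cap as a group rested on single libraries: 9 of the 20 estimates were lower in old ETP without young library 1 (median 0.08) and 10 of 20 without old library 2 (median 0.01), against 19 of 20 without either of the other libraries.

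The other regulators and the core chaperones held no call either. Psme3, PA28 gamma of the nucleus, was at 272 and 222 CPM in old ETP and at 233 and 223 CPM in young ETP (log2 fold change 0.12, SE 0.26), and Psme4, the PA200 activator, was at 110.2 and 234 CPM in old ETP and at 128 and 209.5 CPM in young ETP (0.03, SE 0.46). Psme4 differed far more between the libraries of an age than between ages. Psmf1, which encodes the inhibitor PI31, was at 53.5 and 47.9 CPM in old ETP and at 46.2 and 40.5 CPM in young ETP, without overlap and with a log2 fold change of 0.22 (SE 0.26). Psmg1 to Psmg4 encode the chaperones that assemble the alpha ring. Psmg2 was at 30.8 and 31.8 CPM in old ETP and at 45.8 and 35.2 CPM in young ETP, both old libraries below both young ones, with a log2 fold change of -0.37 (SE 0.30, edgeR adjusted p = 0.999). Psmg3 and Psmg1 had the most negative estimates of all members, at -0.63 (SE 0.63) and -0.48 (SE 0.47), with errors as large as the estimates, while Psmg4 was at 0.33 (SE 0.47).

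**Figure D3:**
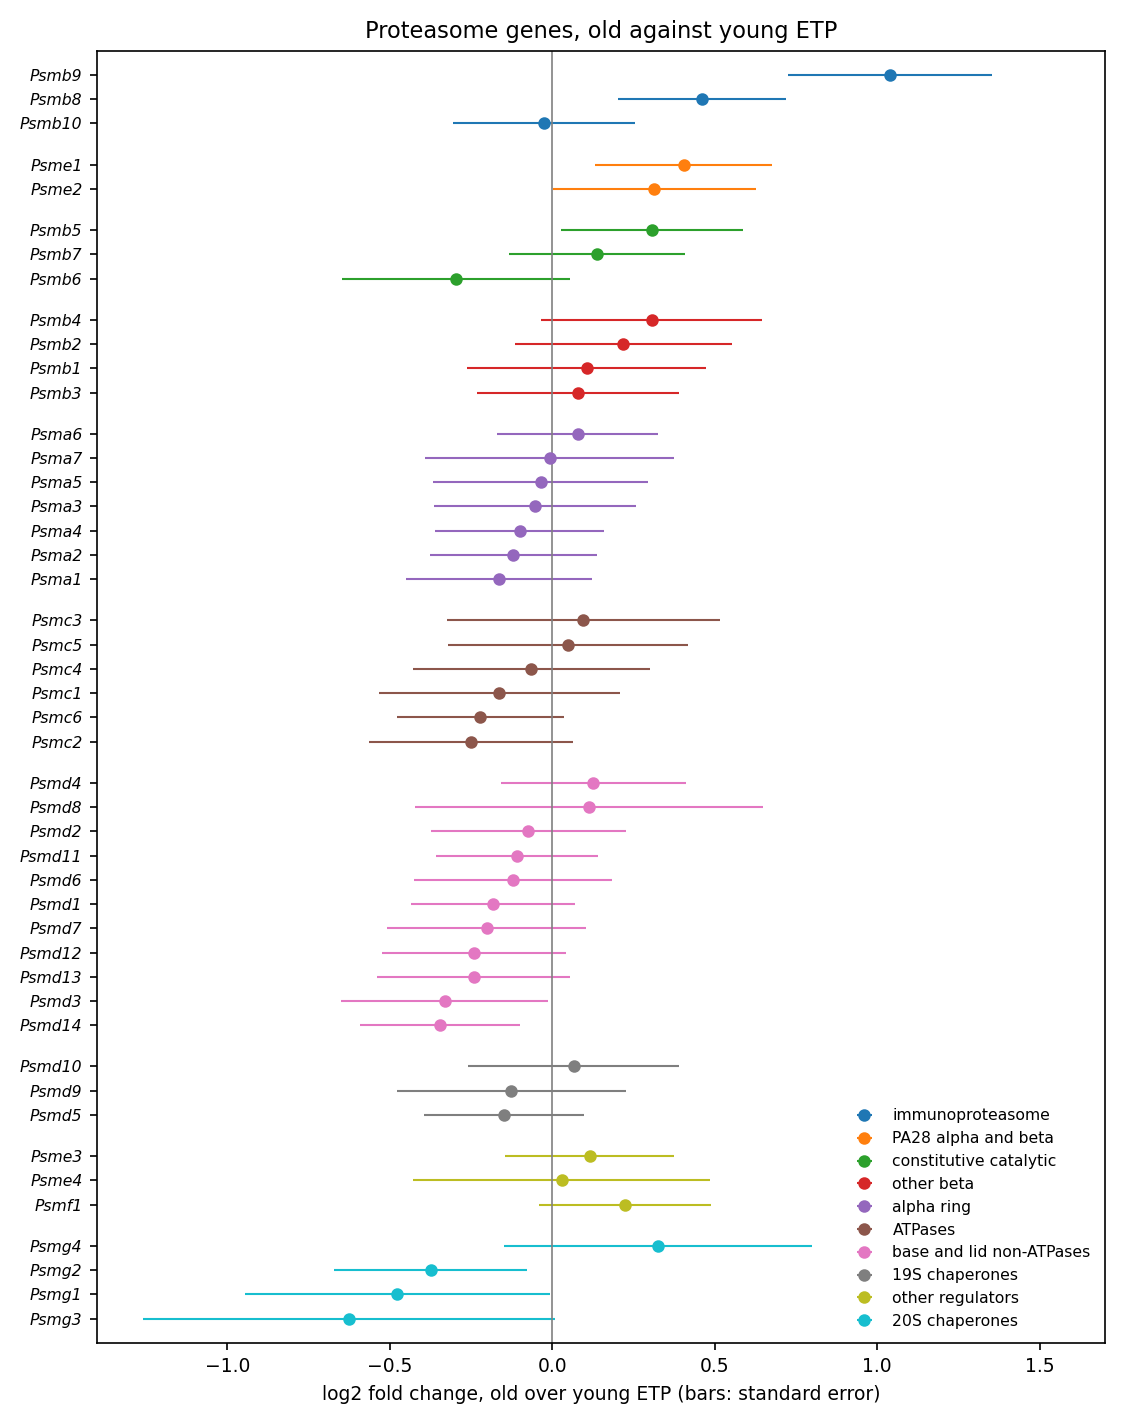
Log2 fold change, old over young ETP (x axis), of the 46 tested members, grouped by their role in the proteasome from the immunoproteasome genes at the top to the core chaperones at the bottom, with bars for the standard error of the edgeR fit. Psmb9 stands apart at 1.04, the other members lie between -0.63 and 0.46, and none was called after adjustment.

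The difference between the libraries of an age was set beside that between the ages. The mean gap between the libraries of an age was the larger in 35 of the 46 tested members (76.1%), and in 68.6% of all tested genes. Single libraries vary more than averages over 2 libraries, so a majority can be reached with no difference between ages, and the count is a description only. In most members the gap between libraries ran the same way in both ages. Library 2, the shallower of each age, was below library 1 in 33 members in old ETP, in 39 in young ETP and in both ages in 32 (69.6%, against 37.2% of all tested genes), with a median log2 ratio of library 2 over library 1 of -0.35 in old and -0.39 in young, against -0.02 and 0.04 for all tested genes. Psmd8, a lid subunit, and Psmg3 showed the widest such gaps, at -1.21 in old and -1.08 in young for Psmd8 and at -1.44 and -1.20 for Psmg3, and Psme4 went the other way, at 1.09 in old and 0.71 in young. Of the immunoproteasome and PA28 genes, Psmb10 alone was lower in library 2 of both ages. The part of depth in these gaps was not tested.

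**Figure D4:**
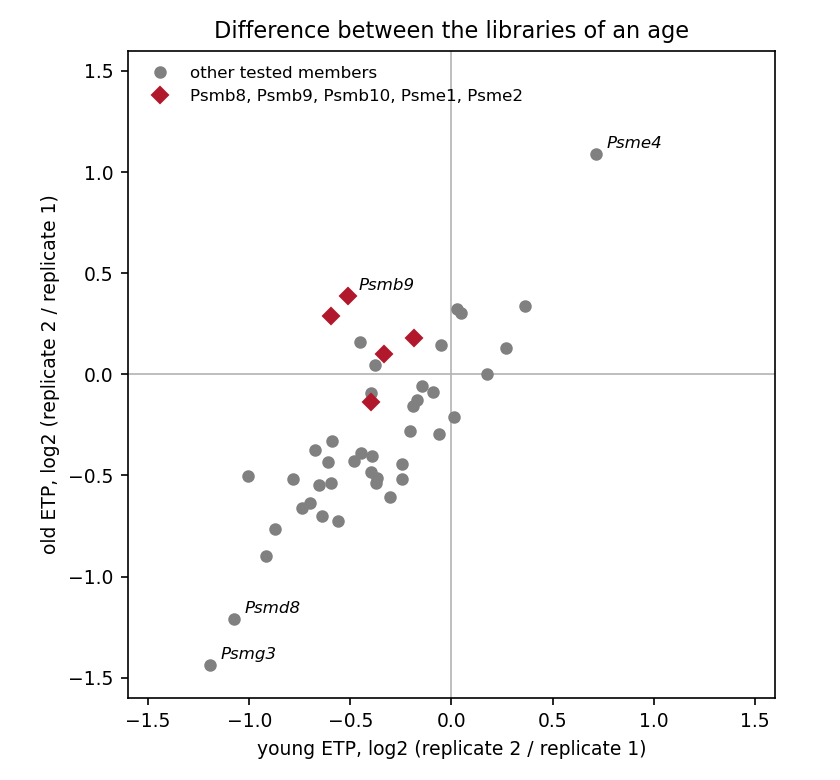
Log2 ratio of library 2 over library 1 in old ETP (y axis) and in young ETP (x axis) for the 46 tested members, with the immunoproteasome and PA28 genes as red diamonds and the others as grey circles. Of all members, 32 lie to the lower left, below 0 in both ages, and Psme4 lies at 1.09 in old and 0.71 in young at the upper right.

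Genes that act with the proteasome but carry other names were read in the same fit, from lists made with earlier results known. Of 24 genes for assembly, ubiquitin handling and regulation, 23 had a row and all 23 were tested: 12 had a higher and 11 a lower estimate in old ETP, with a median of 0.02, 0 were called by edgeR, DESeq2 or limma, and 0 had an unadjusted p under 0.05. Pomp, the chaperone that completes the core, was at 189.6 and 196 CPM in old ETP and at 174 and 140.0 CPM in young ETP, without overlap (log2 fold change 0.29, SE 0.26). Nfe2l1, which drives proteasome genes when the proteasome is inhibited, was at 103 and 83.4 CPM in old ETP and at 99.6 and 79.0 CPM in young ETP, with overlap (0.07). Uba1, the main enzyme that activates ubiquitin, was at 432 and 375 CPM in old ETP and at 483 and 433 CPM in young ETP, both old libraries below both young ones (-0.18, SE 0.26), and Ubb, a polyubiquitin gene, overlapped.

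Of 18 genes for interferon signalling and MHC class I presentation, 17 had a higher estimate in old ETP and 1 (Erap1) a lower one, with a median of 0.83, and in 14 both old libraries were above both young ones, against 16.1% of all tested genes. Without old library 2 the median was 0.29. EdgeR called 0 of the 18, with 8 higher and 0 lower at an unadjusted p under 0.05 (4.65% and 0.913% of all tested genes). DESeq2 called 2 of the 18 and limma 0, against 2.23% and 0% of all tested genes. The most abundant were B2m, the light chain of class I, at 2543 and 3805 CPM in old ETP and 1953 and 2793 CPM in young ETP, and H2-K1, a class I heavy chain whose reads can resemble those of related class I genes, at 1759 and 1304 CPM in old ETP and 970.1 and 693 CPM in young ETP. B2m overlapped between ages (log2 fold change 0.42, SE 0.39), and H2-K1 did not (0.88, SE 0.34). The factors that act on the immunoproteasome genes differed among themselves. Nlrc5, the activator of class I genes, was at 142 and 204 CPM in old ETP and at 62.0 and 66.8 CPM in young ETP (log2 fold change 1.43, SE 0.29, edgeR adjusted p = 0.364). Irf1, which drives Psmb9 and Tap1 after interferon-gamma, was at 146 and 97.4 CPM in old ETP and at 152 and 90.8 CPM in young ETP, with overlap (log2 fold change 0.01). Irf8, a factor of dendritic cells and other myeloid cells, was at 277 and 864 CPM in old ETP and at 59.9 and 82.8 CPM in young ETP (means of 571 and 71.4 CPM, edgeR adjusted p = 0.362). Irf8 was highest in old library 2, the library with the highest dendritic cell marker sum, and the part of those cells in its values was not tested.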

How the data were processed

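Libraries were built from total RNA of sorted ETP with a Nugen Ovation kit, and read pairs were sequenced. Alignment by the authors used STAR 2.3.0 and the GRCm38 (mm10) genome, and the tools named in the submitters' processing notes include Cuffdiff, Cufflinks 2.1.1 and HTSeq 0.5.4p3. The deposited table is laid out like a per-replicate file from Cuffdiff. Its estimated counts, the fragments given to a gene by the authors, were whole within 1e-06 in 95.7% to 96.1% of genes. Its scaled signal is these deposited fragments times a factor per library (0.824 and 1.37 in old, 0.723 and 1.20 in young) and was used only for that check. Its FPKM are the authors' values per transcript length. They kept a difference between libraries, with sums of 230420 and 122998 in old and 281542 and 135313 in young, so TPM was computed from them. The use of strand and the treatment of reads with several alignments are not given in the sources used here. The table names the old condition by another age than the labels, whose age is given here, and does not say which of the 2 samples of an age is which replicate.

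Estimated counts were rounded, scaled by TMM and compared with edgeR 4.0.16 in R 4.3.3 (quasi-likelihood, a term for age alone, Benjamini-Hochberg adjustment, threshold 0.05) over 10080 genes, those that reached 1 FPKM in 2 or more of the 4 libraries. The SE of a log2 fold change was taken from its F statistic. A self-test on simulated counts was run. Shares were compared by an exact permutation test (scipy 1.17.1). Alternatives were other scaling factors, DESeq2 1.42.0, limma 3.58.1 on log2(FPKM + 1) and log2(FPKM + 0.1), other filters, the replicate number as a block, and each library left out in turn. Between the libraries of an age the chi-square per gene was 83.3 in old and 70.9 in young, so none was a copy of the other. Copies of members were searched with BLAST 2.17.0 among GENCODE transcripts. The members and lists were chosen with earlier results of these data known. Full values were given for the catalytic genes, Psme1 to Psme4, Psma8, the 3 members with the smallest p in each direction, a fixed set of interferon and regulatory genes, of which 1 is not reported here, and the most abundant genes of the lists.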

Additional observations from a re-analysis of the deposited data

How the results depend on the processing

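Of 222 recomputed values, 203 were rated as kept. A fold change of a gene had to keep its direction and its side of the threshold. A median or a share had to move by less than the spread between libraries. Counts were held only to a limit on their ratio to the main count. By that limit the 39 members with lower estimates under limma on log2(FPKM + 1), against 26, were rated as kept. Also kept were the median log2 fold change of the members, at -0.22 to 0.18 with a library left out, and the Psmb8 share, whose difference was -0.101 percentage points without young replicate 1. The exceptions follow, and where no value shows the cause, the cause was not tested. Genes called higher and lower in old ETP numbered 0 and 0 in the edgeR fit, 210 and 15 with DESeq2, 474 and 34 with no filter on low values, and 0 to 218 and 0 to 3 with a library left out, where only the fit without old replicate 1 made calls. Members with lower estimates in old ETP numbered 26, and 14 to 34 with a library left out (14 without young replicate 1 and 17 without old replicate 2). As a log2 fold change, Psmb10 ran from -0.21 to 0.19 with a library left out and was above 0 without young replicate 1 (0.19) and without old replicate 2 (0.01). That of Psmb6 ran from -0.58 to 0.07 (0.0696 without young replicate 1), and that of Psmb7 from -0.0469 (without young replicate 2) to 0.35. Psmb7 was at -0.15 with limma on log2(FPKM + 1) and at -0.15 with log2(FPKM + 0.1). The Psmb10 share differed by -2.42 percentage points between ages when taken from fragment counts, which leave out length. Over all 12 alternatives Psmb9 ran from 0.74 to 1.32, with adjusted p from 0.00797 to 1.00, and Psmb8 from 0.16 to 0.59.

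The labels do not say that a replicate number marks a shared batch or animal. Deviations from the age means correlated between libraries of the same number (r = 0.73 over all tested genes and 0.78 over the 46 tested members, across genes, which are not independent). With the replicate block, edgeR called 578 genes higher and 199 lower, which is 777 of the 10080 tested genes. Among them were 1 of the 46 tested members, Psmb9 (log2 fold change 1.04, edgeR adjusted p = 0.00797), and 10 of the 18 interferon and class I genes. Every tested member had at least 28 fragments in each library.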
